A study of Mus musculus with 22 samples.

Results

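The genes described here are 9 members of the CC chemokine system, taken by name from a table of 20938 genes: the monocyte-attracting ligands Ccl2, Ccl7, Ccl8 and Ccl12, the ligands of the T helper 2 (Th2) cell receptors Ccl17, Ccl22 and Ccl1, and those receptors, Ccr4 and Ccr8. They were measured by RNA sequencing in lungs of BALB/c mice (spelled BABL/c in the labels) that, per the labels, had been sensitized intraperitoneally at 49 days of age, had a booster injection at 63 days and were challenged with an aerosol from 70 days. The aerosol held ovalbumin (OVA, the egg-white protein used as an allergen), methacholine (MCh, a muscarinic agonist that narrows the airways) or phosphate-buffered saline (PBS). The short protocol ran for 3 consecutive days, and the long one had 3 challenges a week over 4 weeks. Each protocol had 4 OVA, 4 MCh and 3 PBS libraries, 22 in all. What the mice were sensitized with is not named, every group is described as sensitized, and the sample titles call the OVA mice asthmatic but the MCh and PBS mice normal. Titles also give 4 days for the short MCh group, where its treatment label gives 3, and the series text speaks of trachea where the samples are labelled lung.

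Chemokines are small secreted proteins that guide leukocytes through receptors of the G protein-coupled family. Ccl2, Ccl7 and Ccl12 bind Ccr2 and draw inflammatory monocytes out of blood. Mouse Ccl8 is known as a ligand of Ccr8, the receptor it shares with Ccl1, although its name and genomic place put it with the monocyte attractants. Ccl17 and Ccl22 are made mainly by dendritic cells and macrophages, are induced by interleukin-4 and interleukin-13, and bind Ccr4, which is carried by Th2 cells, regulatory T cells and other memory T cells. These ligands and receptors are known from allergic airway disease, in which they bring type 2 lymphocytes and monocytes into the lung.

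Per the RefSeq table of GRCm38.p6, the same build as the mm10 of the processing notes, 5 of the ligand genes lie in 1 cluster on chromosome 11, over a span of 144.2 kb: Ccl2 (chr11:82035577-82037452), Ccl7 (chr11:82045712-82047525), Ccl12 (chr11:82101845-82103399), Ccl8 (chr11:82115185-82116799) and Ccl1 (chr11:82176666-82179812). The eotaxin gene Ccl11 lies among them. Ccl22 (chr8:94745684-94751388) and Ccl17 (chr8:94809380-94812038) lie on chromosome 8 with Cx3cl1 between them. The receptor genes Ccr4 (chr9:114490316-114505476) and Ccr8 (chr9:120092133-120094906) are on chromosome 9.

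Values are gene FPKM (fragments scaled by transcript length and sequencing depth) as deposited. Depth was estimated from the smallest steps of the values: 1 FPKM stood for 15.1 to 25.4 fragments a library for a transcript of 1 kilobase. Among libraries, 3 of the MCh groups had more genes at 0 than the other 19 (22.5% to 25.3%): library a (34.3%) and library c (33.8%) of the long and library 1 (28.3%) of the short protocol. Each of the 9 members has 1 transcript in the deposited transcript table, and its gene value was a fixed multiple of its transcript value, between 0.17 for Ccl8 and 1.56 for Ccl7. For Ccl8 the multiple matched a length of 3008 bases, where its transcript has 511, and 3006 is the length of Ccl9, the gene in the next row. A fixed multiple leaves the folds of 1 gene over its groups as they are, apart from the added constant. Levels of different genes were set side by side on the transcript scale only. Log2 differences and likeness of pattern use gene FPKM with the added constant, so their order over genes can depend on the scale. All 8 lung epithelium markers were present in all groups. Short OVA libraries had summed transcript FPKM of 72980 to 87670, against 71820 to 85440 for short PBS libraries. Long OVA libraries had 62860 to 78650, against 68680 to 72390 for long PBS libraries. Scgb1a1 held 65.5% of the list's total. With Scgb1a1 left out, short OVA libraries had 29420 to 32670, above the 23450 to 27800 of short PBS libraries, without overlap. Long OVA libraries then had 20500 to 25870, which overlapped the 20970 to 21350 of long PBS libraries.

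All 9 members were higher in short OVA than in short PBS lungs, and in each of them every OVA library stood above every PBS library. Fits were made with limma on log2(FPKM + 0.5) over all 22 libraries, and a gene is called at a Benjamini-Hochberg adjusted p under 0.05 over 15682 tested genes. Of all tested genes 12.4% were called higher in this comparison, and 23.2% had OVA libraries that all lay above the PBS libraries. The members' median log2 difference was 3.52, where the median over all tested genes was -0.06. In RNA of whole lung, a change in the number of cells of a type and a change of RNA per cell cannot be told apart.

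**Figure D1:**
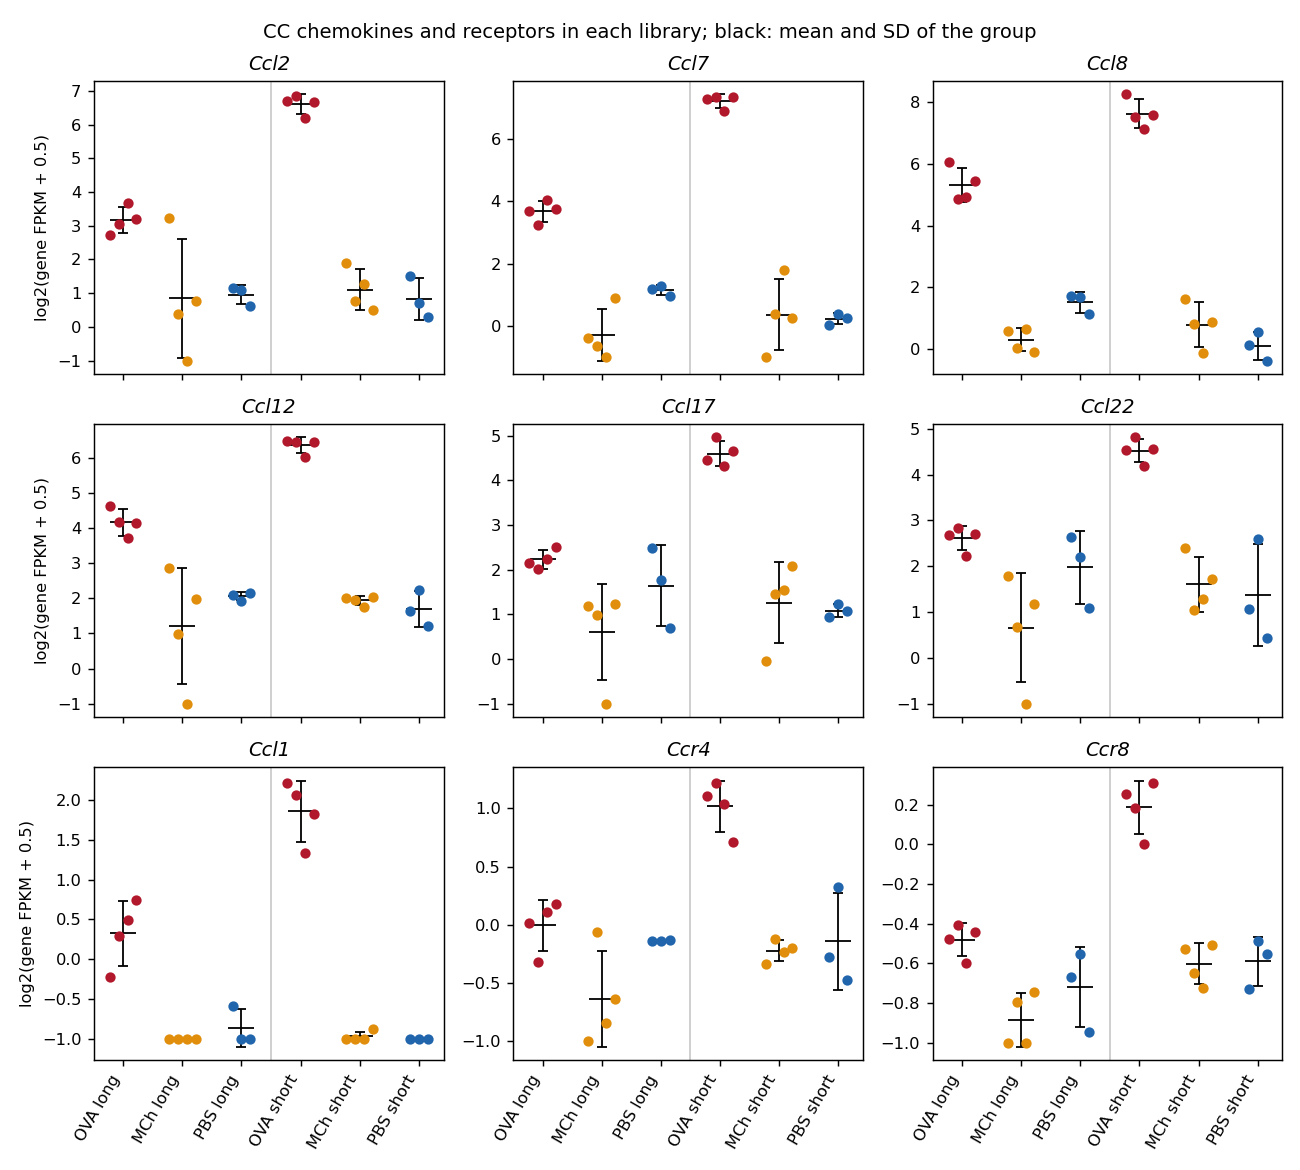
Each panel shows 1 gene, with log2(gene FPKM + 0.5) on the vertical axis and the 6 groups along the horizontal axis, long protocol left of short; a point is a library, and the black bar is the group mean with its SD. The 4 short OVA libraries lie above all other libraries in all 9 panels, and the 4 long OVA libraries lie clear of every MCh and PBS library for Ccl7, Ccl8, Ccl12 and Ccl1.

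Ccl2, the main Ccr2 ligand, had 105, 116, 72.8 and 101 FPKM in short OVA libraries 1 to 4, against 2.37, 1.12 and 0.720 FPKM in short PBS libraries 1 to 3. Library 3 was the lowest of the OVA libraries and still 30.7 times the highest PBS value. The means were 98.7 ± 18.4 and 1.40 ± 0.862 FPKM (SD, n = 4 OVA and 3 PBS), and the log2 difference was 5.78 ± 0.61 (SE, limma adjusted p = 1.46e-06).

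Ccl7, which also acts on monocytes through Ccr2, stood at 155, 162, 118 and 161 FPKM in the short OVA libraries and at 0.527, 0.816 and 0.691 FPKM in the short PBS libraries. Its means of 149 ± 20.9 and 0.678 ± 0.145 FPKM differed 220-fold, and the log2 difference was 6.98 ± 0.45 (limma adjusted p = 2.00e-09). Again OVA library 3 was lowest, apart from the other 3, which lay close together. The PBS values rest on an estimated 6.87 to 9.13 fragments a library, which limits the precision of the fold.

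Ccl8 had the largest log2 difference of the 9. It reached 305, 184, 139 and 194 FPKM in short OVA lungs, against 0.602, 0.968 and 0.274 FPKM in short PBS lungs, a 334-fold difference of the means (205 ± 70.5 and 0.615 ± 0.347 FPKM) and a log2 difference of 7.52 ± 0.37 (limma adjusted p = 7.07e-11). Among all tested genes no more than 2 had a smaller p in this comparison than Ccl8. OVA library 1 was high and library 3 low within the group, and the PBS libraries differed 3.53-fold among themselves.

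Ccl12, a Ccr2 ligand of the mouse, had 89.3, 87.6, 64.5 and 87.4 FPKM in short OVA libraries and 2.60, 4.17 and 1.82 FPKM in short PBS libraries. Its difference was the smallest of the 4 monocyte attractants, 28.7-fold over the means and 4.67 ± 0.54 as log2 (limma adjusted p = 4.44e-06). OVA library 3 was again the lowest, and the other 3 lay within 2.22% of each other.

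Ccl8 and Ccl12, neighbours in the cluster, were both higher in short OVA than in short PBS lungs, by unlike amounts. The stretches before their RefSeq starts are shown with TATAAA in capitals. Both are on the plus strand and run up to the base before the start (chr11:82114985-82115184 for Ccl8 and chr11:82101645-82101844 for Ccl12, GRCm38.p6, sequences from RefSeq).
Ccl8: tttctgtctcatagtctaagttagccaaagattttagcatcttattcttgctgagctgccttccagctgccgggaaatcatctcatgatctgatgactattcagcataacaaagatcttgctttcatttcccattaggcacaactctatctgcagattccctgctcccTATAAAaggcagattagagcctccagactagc
Ccl12: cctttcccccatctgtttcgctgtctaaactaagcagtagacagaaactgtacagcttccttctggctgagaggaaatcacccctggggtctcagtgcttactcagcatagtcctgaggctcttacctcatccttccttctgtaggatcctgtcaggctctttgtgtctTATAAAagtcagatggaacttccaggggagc
TATAAA began at position -32 in Ccl8 and at position -31 in Ccl12, counted back from the start. The search covered windows of 300 bases, from 250 before to 50 after the start, on both strands. Of 32851 such windows 13.6% hold TATAAA, and of the 7 members with a window 2 do.

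On the transcript scale, which allows levels of different genes to be set side by side, the 4 monocyte attractants summed to 1027 to 2084 FPKM in short OVA lungs and to 4.52 to 11.3 FPKM in short PBS lungs. Ccl8 is counted here by its name and genomic place, and as a known ligand of Ccr8 it makes the sum no measure of Ccr2 ligands. Ccl8 made up 78.1% to 86.1% of that sum in short OVA libraries, against 35.7% to 50.3% in short PBS libraries. Ccl12 made up 4.11% to 6.07% in short OVA libraries, against 28.6% to 38.6% in short PBS libraries. The shares of Ccl8 and of Ccl12 did not overlap between these groups. Ccl2 held 5.0% to 8.33% of the sum with OVA, against 9.84% to 27.0% with PBS, again without overlap. The share of Ccl7 was 4.75% to 7.5% with OVA, against 3.86% to 9.79% with PBS, and these ranges overlapped. The shares are parts of the same sum, so a larger share of Ccl8 leaves less for the others.

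**Figure D2:**
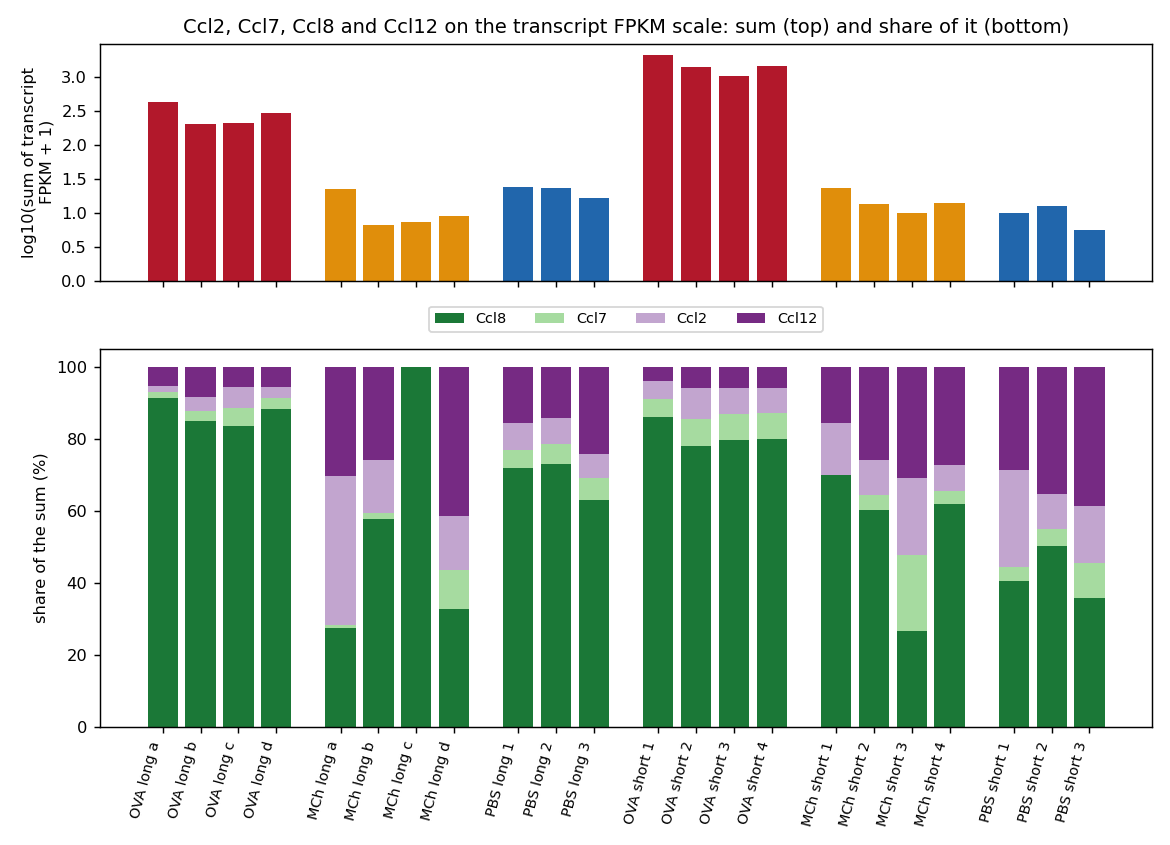
The upper panel gives the sum of Ccl2, Ccl7, Ccl8 and Ccl12 as log10(transcript FPKM + 1) for each of the 22 libraries, and the lower panel the share of each gene in that sum in percent, with long groups left of short groups. Ccl8 fills 78.1% to 91.2% of every OVA bar, and in long MCh library c, where the other 3 genes are listed at 0, it fills the whole bar.

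Ccl17, a Ccr4 ligand made by dendritic cells, was at 21.4, 30.7, 19.5 and 24.9 FPKM in short OVA lungs and at 1.43, 1.86 and 1.59 FPKM in short PBS lungs. The PBS libraries lay within a narrow band (1.63 ± 0.217 FPKM), and the OVA mean of 24.1 ± 4.92 FPKM was 14.8 times theirs. The log2 difference was 3.52 ± 0.50 (limma adjusted p = 5.08e-05).

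Ccl22, the other Ccr4 ligand, reached 22.6, 27.5, 17.8 and 22.9 FPKM in short OVA lungs, against 1.6, 5.54 and 0.840 FPKM in short PBS lungs. PBS library 2 was 3.45 times PBS library 1 and 6.59 times PBS library 3. The means were 22.7 ± 4.00 and 2.66 ± 2.52 FPKM, with a log2 difference of 3.16 ± 0.54 (limma adjusted p = 3.41e-04). Short PBS library 2 was also the highest of its group for T cell markers, with summed transcript FPKM of 110 against 44.5 and 45.7 in PBS libraries 1 and 3, and for B cell markers, with 187 against 40.2 and 29.8. Short MCh library 1, the highest of its group for Ccl22 at 4.78 FPKM, had marker sums of 135 for T cells and 177 for B cells, where the other 3 short MCh libraries had 42.6 to 76.3 and 26.8 to 45.4. The 4 short OVA libraries had T cell sums of 97.3 to 142 and B cell sums of 124 to 199. Their lowest Ccl22 value, 17.8 FPKM in library 3, was 3.21 times that of PBS library 2. The part of lymphoid cells in these Ccl22 values was not tested.

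**Figure D3:**
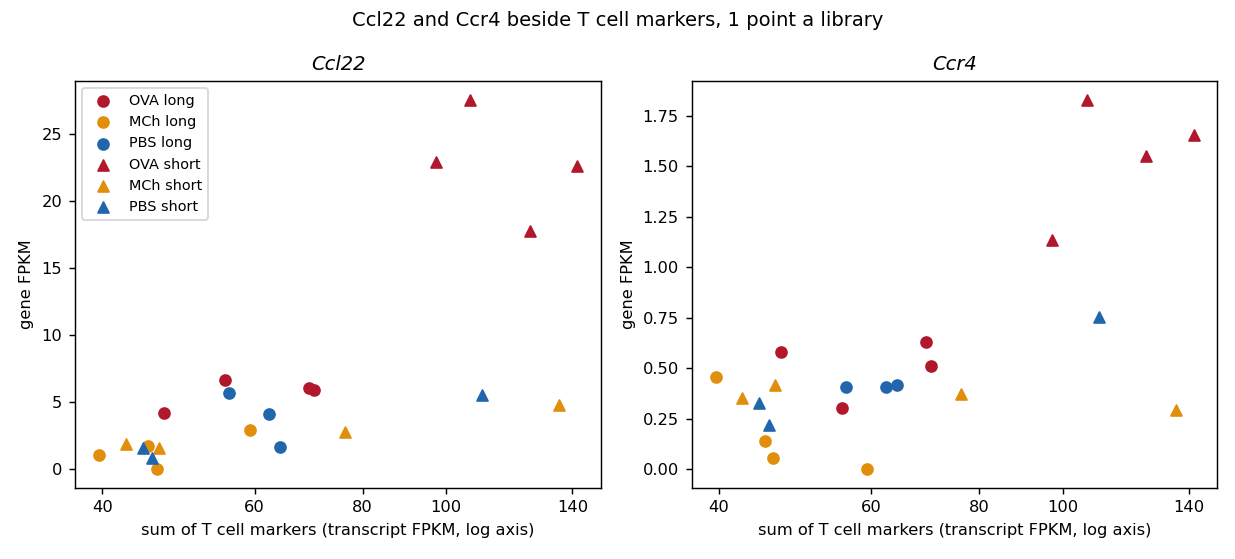
Each point is 1 library, with the summed transcript FPKM of 11 T cell markers on a log horizontal axis and the gene FPKM of Ccl22 (left) or Ccr4 (right) on the vertical axis; circles are long and triangles short libraries. Short PBS library 2 and short MCh library 1 lie at marker sums of 110 and 135 with Ccl22 at 5.54 and 4.78 FPKM; the short OVA libraries lie at marker sums of 97.3 to 142 with Ccl22 at 17.8 to 27.5 FPKM.

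Promoter windows of Ccl17 and Ccl22 are shown because these genes are known targets of STAT6, the factor that carries the interleukin-4 signal. Capitals mark TTC and GAA set 4 bases apart, the spacing that STAT6 prefers, and TTCNNNGAA, the spacing of other STAT factors. Both stretches are on the plus strand of GRCm38.p6 and come from RefSeq. That of Ccl17 (chr8:94810253-94810452) ends at the base before its RefSeq start and lies inside the longer RefSeq gene span given above. That of Ccl22 (chr8:94745434-94745589) ends before the first base that GENCODE annotates as exon.
Ccl17: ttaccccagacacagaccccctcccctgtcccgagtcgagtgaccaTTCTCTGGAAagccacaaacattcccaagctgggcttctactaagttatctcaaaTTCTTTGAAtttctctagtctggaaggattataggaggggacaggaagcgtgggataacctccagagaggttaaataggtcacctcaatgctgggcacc
Ccl22: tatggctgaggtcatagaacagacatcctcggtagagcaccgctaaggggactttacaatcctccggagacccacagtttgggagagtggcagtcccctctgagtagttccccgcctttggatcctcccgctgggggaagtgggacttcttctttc
In Ccl17 the first motif began at position -154 (TTCTCTGGAA) and the second at position -99 (TTCTTTGAA), and the matches do not overlap. No letters of either motif were found in the Ccl22 window or in those of Ccl1, Ccl8, Ccl12, Ccr4 and Ccr8. Of all 32851 windows 6.95% hold the motif with 4 bases between and 8.3% hold TTCNNNGAA. The NF-kB consensus, held by 4.51% of all windows, was found in 0 of the 7 member windows, and the AP-1 motif TGANTCA, held by 7.81%, in that of Ccr4, at position -143.

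Ccl1, a Ccr8 ligand secreted by activated T cells and mast cells, was listed at 0 in all 3 short PBS libraries. In short OVA libraries it stood at 4.14, 3.69, 2.03 and 3.05 FPKM, values that rest on an estimated 48.5 to 96.2 fragments a library. The limma test on the values with the added 0.5 gave an adjusted p of 5.47e-09, and no fold is given against a group at 0. OVA library 3 was the lowest of its group, as it was for Ccl2, Ccl7, Ccl8, Ccl12, Ccl17, Ccl22 and Ccr8.

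Ccr4, the receptor of Ccl17 and Ccl22, had 1.65, 1.83, 1.55 and 1.14 FPKM in short OVA lungs and 0.327, 0.755 and 0.219 FPKM in short PBS lungs. Its means of 1.54 ± 0.295 and 0.433 ± 0.284 FPKM differed 3.56-fold, with a log2 difference of 1.16 ± 0.21 (limma adjusted p = 4.48e-04). PBS library 2, high for T cell markers, was the highest of the PBS group here too, while short MCh library 1, also high for them, was the lowest of its group for Ccr4 at 0.292 FPKM, against 0.353 to 0.418 FPKM in the other 3.

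Ccr8, the receptor of Ccl1 and, in the mouse, of Ccl8, stood at 0.693, 0.634, 0.503 and 0.741 FPKM in short OVA lungs and at 0.104, 0.213 and 0.183 FPKM in short PBS lungs. The means were 0.643 ± 0.103 and 0.167 ± 0.0562 FPKM, a 3.85-fold difference. As log2(FPKM + 0.5) the difference was 0.78 ± 0.12 (limma adjusted p = 1.11e-04), which understates the fold of a gene this low. PBS values of Ccr8 rest on an estimated 11.9 to 20.8 fragments a library.

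With the long protocol 3 members were called higher in OVA than in PBS lungs, Ccl8, Ccl7 and Ccl1, where 1.03% of all tested genes were called higher. The members' median log2 difference was 1.18, and that of all tested genes -0.02. For 5 members every long OVA library stood above every long PBS library, a separation that 9.95% of all tested genes showed in that direction.

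Ccl8 had 65.9, 28.6, 29.9 and 43.5 FPKM in long OVA libraries a to d, against 2.83, 2.74 and 1.68 FPKM in long PBS libraries 1 to 3. Its means of 42.0 ± 17.3 and 2.42 ± 0.639 FPKM differed 17.4-fold, with a log2 difference of 3.81 ± 0.37 (limma adjusted p = 7.69e-06). Ccl7 reached 12.4, 8.88, 15.9 and 13.1 FPKM in long OVA lungs and 1.77, 1.93 and 1.46 FPKM in long PBS lungs, a log2 difference of 2.54 ± 0.45 (limma adjusted p = 0.00488). The adjusted p of Ccl7 was 0.144 with 0.1 in place of 0.5 added to FPKM, and it was under 0.05 in the other 33 alternatives tried. Ccl1 was at 0.352, 0.722, 0.903 and 1.18 FPKM in long OVA lungs, an estimated 7.57 to 26.4 fragments, and at 0.167 FPKM in long PBS library 1, with PBS libraries 2 and 3 listed at 0 (limma adjusted p = 0.00253).

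Ccl2 and Ccl12 did not pass in this comparison, although their groups did not overlap. Ccl2 stood at 6.17, 7.82, 12.3 and 8.76 FPKM in long OVA lungs and at 1.71, 1.61 and 1.05 FPKM in long PBS lungs, with a log2 difference of 2.22 ± 0.61 (limma adjusted p = 0.097). Ccl12 stood at 24.5, 17.4, 12.6 and 17.4 FPKM in long OVA lungs and at 3.81, 3.29 and 3.97 FPKM in long PBS lungs, with 2.11 ± 0.54 (limma adjusted p = 0.0648). The fit shares 1 spread per gene over all 6 groups, and long MCh libraries a and c, those with the largest shares of genes at 0, carried 8.86 and 0 FPKM of Ccl2 and 6.78 and 0 FPKM of Ccl12. Without the 3 libraries with the largest shares of genes at 0, 5 members were called, with Ccl2 at 2.22 ± 0.28 (adjusted p = 2.13e-04) and Ccl12 at 2.11 ± 0.25 (1.58e-04). Of all genes 519 were called there in either direction, against 185 with all libraries. Over all 34 alternatives the adjusted p of Ccl2 ran from 5.45e-06 to 0.422 and that of Ccl12 from 4.45e-06 to 0.409.

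The Ccr4 ligands and both receptors had overlapping groups in the long protocol. Ccl17 was at 3.93, 3.56, 4.2 and 5.23 FPKM in long OVA lungs and at 5.08, 2.90 and 1.11 FPKM in long PBS lungs (log2 difference 0.59 ± 0.50). Ccl22 was at 5.90, 6.65, 4.19 and 6.06 FPKM in long OVA lungs and at 5.68, 4.09 and 1.63 FPKM in long PBS lungs (0.64 ± 0.54). PBS library 1 was the highest of its group for both ligands and lay above 3 of the 4 OVA libraries for Ccl17. Ccr4 had 0.512, 0.303, 0.579 and 0.631 FPKM in long OVA lungs and 0.408, 0.407 and 0.417 FPKM in long PBS lungs (0.13 ± 0.21). Ccr8 had 0.220, 0.256, 0.161 and 0.236 FPKM in long OVA lungs and 0.130, 0.182 and 0.0202 FPKM in long PBS lungs (0.24 ± 0.12, limma adjusted p = 0.712).

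**Figure D4:**
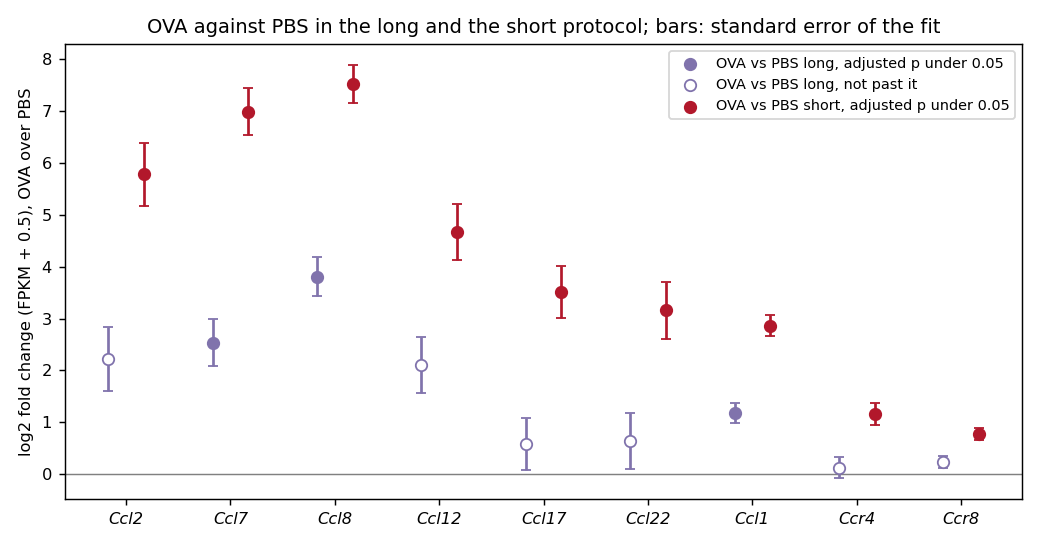
The vertical axis gives the log2 fold change of FPKM + 0.5 for OVA over PBS with its standard error, for each of the 9 genes; purple is the long and red the short protocol, and open circles did not pass. In the short protocol all 9 passed and in the long protocol Ccl7, Ccl8 and Ccl1, and the value of Ccl1 in the short protocol depends on the added 0.5, since its PBS libraries are listed at 0.

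Set against each other, long OVA lungs had less of every member than short OVA lungs, with no overlap between the 4 and 4 libraries and an adjusted p under 0.05 for all 9 (limma). Of all tested genes 12.0% were called lower in this comparison and 20.4% had groups that did not overlap in that direction. Ccl7 and Ccl2 were furthest apart, at 12.6 ± 2.90 FPKM in long and 149 ± 20.9 FPKM in short OVA lungs for Ccl7 and at 8.77 ± 2.61 and 98.7 ± 18.4 FPKM for Ccl2, where short OVA lungs held 11.9 and 11.3 times the level. Ccl8 was at 42.0 ± 17.3 FPKM in long and 205 ± 70.5 FPKM in short OVA lungs, a ratio of 4.89 short over long, and Ccl12, Ccl17, Ccl1 and Ccl22 had ratios of 4.58, 5.70, 4.09 and 3.98. The receptors were closest, with ratios of 3.05 for Ccr4 and 2.95 for Ccr8. The log2 differences ran from -3.53 for Ccl7 to -0.67 for Ccr8. On sums of transcript FPKM they ran from -3.50 for Ccl7 to -1.04 for Ccr4, with Ccr8 at -1.14. With 0.1 added in place of 0.5, Ccl22 missed the threshold (-1.98 ± 0.75, limma adjusted p = 0.0589), the only call of the 9 that any alternative ended. Marker lists differed in the same comparison: 12 of 18 markers of recruited monocytes and macrophages were lower and 3 higher, 7 of 15 dendritic cell markers and 4 of 11 T cell markers were lower and 0 higher, and 3 of 5 endothelial markers were higher and 1 lower. All 4 mesothelium markers were higher, with summed transcript FPKM of 80.9 to 97.2 in long and 8.79 to 66.4 in short OVA libraries. Their part in the members' differences was not tested.

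Whether the OVA effect itself differed between protocols was tested as the OVA against PBS difference of the long minus that of the short protocol. It passed for 5 members, where 1.42% of all tested genes were called lower: Ccl7 at -4.45 ± 0.64 (limma adjusted p = 5.11e-04), Ccl8 at -3.71 ± 0.52 (4.24e-04), Ccl2 at -3.56 ± 0.86 (0.0364), Ccl17 at -2.93 ± 0.71 (0.0356) and Ccl1 at -1.68 ± 0.28 (0.00265). The size for Ccl1 depends on the added 0.5, since its short PBS libraries are listed at 0. It ran from -2.43 to -1.25 over the alternatives. Ccl12 (-2.56 ± 0.76, adjusted p = 0.102), Ccl22 (-2.51 ± 0.77, 0.112), Ccr4 (-1.03 ± 0.29, 0.0814) and Ccr8 (-0.54 ± 0.17, 0.125) did not pass, and their values were negative as well. The calls of Ccl2 and Ccl17 ended in 14 and 16 of 34 alternatives, among them leaving out single PBS or OVA libraries, with adjusted p up to 0.179 and 0.211, and those of Ccl7, Ccl8 and Ccl1 held in all 34. Without the 3 libraries with the largest shares of genes at 0, all 9 passed. Of all genes 1030 were called there in either direction, against 295 with all libraries.

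On the transcript scale the 4 monocyte attractants summed to 199 to 425 FPKM in long OVA lungs and to 1027 to 2084 FPKM in short OVA lungs, and Ccl8 made up 83.6% to 91.2% in long and 78.1% to 86.1% in short OVA libraries, which overlap. Among PBS lungs the sum was 15.7 to 23.2 FPKM in the long and 4.52 to 11.3 FPKM in the short protocol, and the share of Ccl8 was 63.1% to 72.9% in long and 35.7% to 50.3% in short libraries, which do not overlap. In the comparison of long with short PBS lungs no member was called by limma, where 0.166% of all tested genes were called in either direction. Ccl8 alone had an unadjusted p under 0.05, as 854 of all 15682 tested genes did, with a log2 difference of 1.41 ± 0.39 (adjusted p = 0.236). Ccl7 and Ccl8 had long PBS libraries that all lay above the short ones, as 18.9% of all tested genes did. Library 3 was the lowest of the long PBS group for Ccl2, Ccl7, Ccl8, Ccl17, Ccl22 and Ccr8.

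No member passed the threshold with methacholine. In the short protocol 0 of 9 passed, and 1 gene of all tested was called, or 0.00638%. An unadjusted p under 0.05 (limma) was found for 0 of 9 there, and for 1175 of all 15682 tested genes. Ccl8 had the largest value there, 0.68 ± 0.37 (adjusted p = 0.7), from 2.58, 1.26, 0.407 and 1.33 FPKM in short MCh libraries 1 to 4 and 0.602, 0.968 and 0.274 FPKM in short PBS libraries. In the long protocol 0 of 9 passed, 4 had an unadjusted p under 0.05, as 2551 of all 15682 tested genes did, and all 9 values were negative, where 0.0638% of all tested genes were called and the median over all tested genes was -0.14. Those 4 were Ccl7 at -1.43 ± 0.45, Ccl22 at -1.31 ± 0.54, Ccl8 at -1.21 ± 0.37 and Ccr4 at -0.50 ± 0.21. Ccl7 and Ccl8 had long MCh libraries that all lay below the long PBS libraries, a separation that 10.5% of all tested genes showed in that direction. Ccl8 was at 1.0, 0.537, 1.08 and 0.444 FPKM in long MCh libraries a to d and at 2.83, 2.74 and 1.68 FPKM in long PBS libraries. Of the 9 members, 7 were listed at 0 in long MCh library c, the exceptions being Ccl8 and Ccr4. The difference of the MCh effects between protocols passed for 0 members, as for 0% of all tested genes. An unadjusted p under 0.05 (limma) was found for 2 members, and for 989 of all 15682 tested genes.

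Against MCh, OVA lungs had more of all 9 members in the short protocol, where 9.37% of all tested genes were called higher and 11.8% had OVA libraries that all lay above the MCh libraries, as those of the 9 members did. Log2 differences ran from 0.79 ± 0.11 for Ccr8 to 6.85 ± 0.42 for Ccl7, with limma adjusted p of 3.80e-04 or less. On sums of transcript FPKM the ends were other genes, Ccr4 at 1.26 ± 0.20 and Ccl8 at 7.3 ± 0.43, with Ccr8 at 1.41 ± 0.23. In the long protocol 8 passed, where 4.75% of all tested genes were called higher, from Ccl8 at 5.02 ± 0.34 (adjusted p = 8.37e-08) to Ccr8 at 0.41 ± 0.11 (0.0338), and Ccr4 did not, at 0.63 ± 0.19 (0.0541). Ccl2 and Ccr4 had long OVA and long MCh groups that overlapped, while the other 7 did not, against 9.60% of all tested genes. For Ccl2 the overlap came from long MCh library a, at 8.86 FPKM, where the other 3 long MCh libraries had 0 to 1.19 FPKM. Without the 3 libraries with the largest shares of genes at 0, the long comparison called 5 members, and in a fit of its groups alone it called 3. Of all genes these settings called 490 and 292 in either direction, against 951 in the fit reported. The call of Ccl17 ended in 20 of 34 alternatives (adjusted p up to 0.159) and that of Ccr8 in 10 of 33 (up to 0.379), while those of Ccl8, Ccl7 and Ccl1 held in all.

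The order of the groups was alike at its top. Short OVA was highest and long OVA next for all 9 members by the mean. Below them, neighbouring groups overlapped for every member. Long OVA lay clear of the group under it for Ccl7, Ccl8, Ccl12 and Ccl1, and overlapped it for Ccl2, Ccl17, Ccl22, Ccr4 and Ccr8.

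By likeness of pattern, each member was set against 12766 genes with a mean of at least 1 FPKM, using the root mean square difference of log2(FPKM + 0.5) over the 22 libraries after each gene's mean was subtracted. Nearest to Ccl8 were Cd209e, a C-type lectin, at 0.627, and Arg1, arginase 1, at 0.784, and the same pair led for Ccl7, at 0.724 and 0.826. Saa3, an acute phase protein, was nearest to Ccl12 at 0.561 and to Ccl2 at 0.739. Ms4a6d and Socs1 (a suppressor of cytokine signalling) were among the 3 nearest to both Ccl17 and Ccl22, with Ms4a6d at 0.489 from Ccl17 and Socs1 at 0.444 from Ccl22. The chemokine Cxcl10 was nearest to Ccl1 at 0.291. Ccr4 and Ccr8 were nearest to genes of small range, Aldh1a7 at 0.216 and Ctsa at 0.148, since the added 0.5 flattens genes this low. Among the members themselves the closest pairs were Ccr4 with Ccr8 (0.304), Ccl17 with Ccl22 (0.657) and Ccl17 with Ccl1 (0.698). Ccl2 with Ccl12 (0.699) and Ccl1 with Ccr4 (0.701) came next. Ccl7 and Ccl8 were each other's nearest member, at 1.01. Other pairs were closer than that, among them Ccl1 with Ccl22 (0.766) and Ccl12 with Ccl22 (0.797).

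Of 13 other CC ligands tested, 7 were called higher and 0 lower in short OVA against short PBS lungs, with a median log2 difference of 1.84. Ccl11, the eotaxin of the chromosome 11 cluster, was at 5.42 ± 0.56 and Ccl24, eotaxin-2, at 5.80 ± 0.36 (limma adjusted p = 1.10e-06 and 1.07e-09). Ccl9 stood at 3.86 ± 0.25 and Ccl6 at 1.84 ± 0.24. In the long protocol 3 of the 13 were called, with a median of 1.01: Ccl11 at 3.05 ± 0.56, Ccl9 at 2.60 ± 0.25 and Ccl6 at 1.21 ± 0.24, and Ccl24 was at 1.28 ± 0.36.

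**Figure D5:**
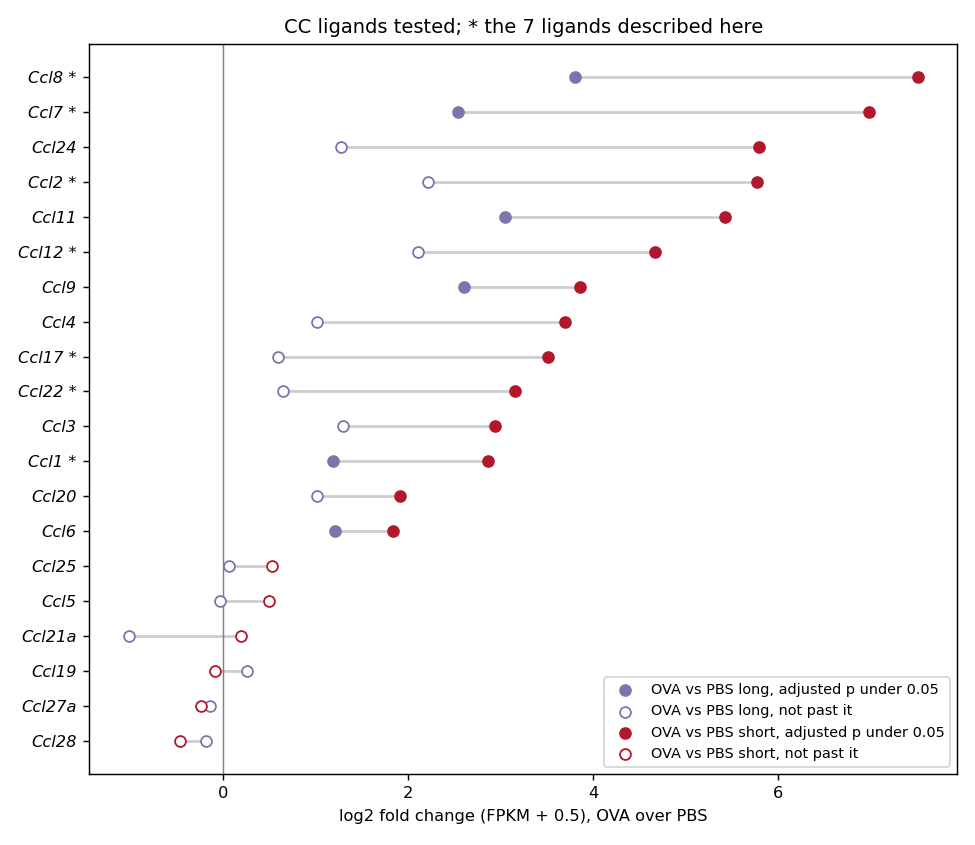
The horizontal axis gives the log2 fold change of FPKM + 0.5 for OVA over PBS of the 20 CC ligands tested, 1 row a gene, with the 7 ligands of this set starred; filled points passed at an adjusted p under 0.05. All 7 starred genes are filled in the short protocol (red), and Ccl8, Ccl7 and Ccl1 are filled in the long protocol (purple).

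Among other CC receptors, Ccr2 and Ccr1 were higher in short OVA than in short PBS lungs. Ccr2, which reads Ccl2, Ccl7 and Ccl12 and marks inflammatory monocytes, was at 1.89 ± 0.16 (limma adjusted p = 1.02e-07) and Ccr1 at 2.39 ± 0.32. The eosinophil receptor Ccr3 was at 3.26 ± 0.38 and Ackr1, a chemokine-binding receptor of venules and red cells, at 2.49 ± 0.28, and both were called higher. Ackr4 was called lower, at -0.95 ± 0.34 (named after its value was seen). In long OVA against long PBS lungs Ccr2 was at 0.11 ± 0.16 and did not pass. The OVA effect on Ccr2 was smaller in the long protocol by the test of the difference (-1.78 ± 0.23, limma adjusted p = 1.67e-04).

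Of 11 tested cytokines from a list drawn up as possible inducers of these ligands, 9 were higher in short OVA lungs, with a median of 2.13. Whether any of them, Il10 included, raised or lowered the members was not tested. Il13 was at 4.03 ± 0.23, Il10 at 3.15 ± 0.23, Il33 at 2.71 ± 0.17 and Il6 at 2.13 ± 0.11. Of 10 genes of interleukin-4 and interleukin-13 signalling, 6 were higher and 1 lower, among them the feedback inhibitors Socs1 at 3.15 ± 0.37, Socs3 at 2.29 ± 0.22 and Cish at 2.12 ± 0.21, and the receptor chain Il4ra at 0.54 ± 0.12. In the long protocol 2 of the 11 cytokines passed, Il33 at 1.80 ± 0.17 and Il10 at 1.19 ± 0.23, and 1 of the 10 signalling genes, Socs3 at 0.98 ± 0.22.

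Markers of the cells that make or follow these chemokines differed between groups for some lists more than others, and their part in the members' values was not tested. Of 18 markers of recruited monocytes and macrophages 13 were called higher and 0 lower in short OVA against short PBS lungs, among them C1qb at 2.86 ± 0.22 and Adgre1, which encodes F4/80, at 1.53 ± 0.14. Summed transcript FPKM of the list ran from 4661 to 5403 for short OVA libraries, against 4811 to 6039 for short PBS libraries, and Lyz2 held 91.3% of the list's total. Without Lyz2 the sums were 932 to 1306 in short OVA, 226 to 289 in short PBS, 446 to 599 in long OVA and 240 to 289 in long PBS libraries. The long protocol had 5 of the 18 past the threshold.

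Dendritic cell markers passed for 8 of 15 in the short protocol, all higher, with Mgl2 at 3.37 ± 0.24 and Batf3 at 2.99 ± 0.31, and for 1 of 15 in the long protocol, Itgax at 1.37 ± 0.20. Short OVA libraries had sums of these markers of 683 to 845, against 315 to 354 for short PBS libraries. Long OVA libraries had 345 to 439, which overlapped the 285 to 368 of long PBS libraries. H2-Ab1 held 59% of the list's total. With H2-Ab1 left out, long OVA libraries had 165.6 to 225.7, above the 111.8 to 147.6 of long PBS libraries, without overlap. Short OVA libraries then had 311.5 to 389.5, against 101.1 to 123.8 for short PBS libraries. Of 11 T cell markers tested 3 passed in the short and 0 in the long protocol. Of 11 markers of Th2 cells and type 2 innate lymphoid cells, 5 were higher and 1 lower in the short and 0 passed in the long protocol, with Il5 at 3.74 ± 0.24 and Il1rl1, the receptor of interleukin-33, at 2.16 ± 0.22 in the short one. Regulatory T cell markers were higher for 5 of 8 and lower for 1 in the short protocol, led by the costimulatory receptor Tnfrsf9 at 4.43 ± 0.41, and 1 of 8 passed in the long protocol, Tnfrsf9 at 2.01 ± 0.41. No list of these cell types had a gene listed at 0 in all libraries.

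Values within a library also followed transcript length. The members' transcripts run from 511 bases for Ccl8 to 2216 for Ccl22 and 2805 for Ccr4. Across 15475 genes, which are not independent replicates, Spearman's rho between length and a library's deviation ran from -0.479 to -0.395 for the short OVA libraries, against -0.0255 to 0.279 for the short PBS libraries. It ran from 0.269 to 0.371 for the long OVA libraries, and short MCh library 4 stood lowest of all at -0.649. With each library's length trend removed, all 9 members still passed in short OVA against short PBS lungs, with Ccl8 at 7.0 ± 0.36, Ccl17 at 3.00 ± 0.47, Ccr4 at 1.18 ± 0.19 and Ccr8 at 0.49 ± 0.12 (adjusted p = 0.00595, the highest of the 9). In long against short OVA lungs all 9 passed as well, with smaller differences for 8 of them: Ccl8 was at -1.76 ± 0.33, Ccl1 at -1.0 ± 0.20 and Ccr8 at -0.37 ± 0.11, and Ccr4 was at -1.07 ± 0.18. Other calls ended. For the OVA effect between protocols these were Ccl2 (-3.22 ± 0.88, limma adjusted p = 0.0654) and Ccl17 (-2.50 ± 0.66, 0.0535), while Ccl7, Ccl8 and Ccl1 held. In long OVA against long MCh lungs the call of Ccr8 ended (0.26 ± 0.11, limma adjusted p = 0.14).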

How the data were processed

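RNA sequencing gave 22 libraries of mouse lung (library preparation with the TruSeq Stranded Total RNA kit, per the labels' protocols). The authors deposited FPKM values per gene and per transcript. Trim Galore, STAR, DESeq2 and mm10 are named in the submitters' processing notes, without versions or roles, and how FPKM were computed is not given in the sources used here. The members and gene lists were chosen with earlier results of these data known. The text names all 9 members, up to 4 genes with the smallest p in short OVA against short PBS per other list, and Ccr1, Ccr2 and Ccl11. By likeness it names the nearest gene of each member and, for some members, another of the 3 nearest. A further gene of the receptor list, and that list's counts, are not reported here.

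From the deposited FPKM, genes with at least 0.1 FPKM in at least 3 libraries (15682 of 20938) were fitted as log2(FPKM + 0.5) with limma 3.58.1 (R 4.3.3, trend, 6 groups in 1 fit), two-sided, with Benjamini-Hochberg adjustment over all tested genes per comparison. Labels call replicates biological, but nothing further says how libraries map to mice, so p-values measure the spread between these libraries. Columns of 8 long OVA and MCh libraries could be tied to their group only and are lettered. Replicate numbers were not used to pair the libraries in the fit reported, since deviations gave no sign of pairing. No pair of libraries held identical values. Estimated fragments come from the steps of the FPKM values and cover counting error only. The fit was tested on simulated data. Promoter windows of chromosome 18 were not used. Alternatives were other added constants, filters, scalings and weights, fits of the compared groups alone, transcript sums, robust variances, a replicate block and leaving out libraries. Removing the trend with transcript length was chosen after seeing the data.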

Additional observations from a re-analysis of the deposited data

Results flagged for a closer look

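Within groups of 4 libraries, 35 sets of values of the 9 genes were examined for a library far from the others, by the gap to its nearest neighbour as a share of the group's range (Dixon's test at its critical value). Chance marks about 1 in 20, and 4 were marked. Ccl2 was high in long MCh library a, at 8.86 FPKM with a ratio of 0.866. Ccl7 and Ccl12 were low in short OVA library 3, at 118 FPKM with a ratio of 0.83 and at 64.5 FPKM with a ratio of 0.922. Ccl1 in short MCh library 4, at 0.0429 FPKM with a ratio of 1.0, was the only value above 0 of its group and rests on an estimated 1.02 fragments.

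The OVA effect differed between protocols, long minus short on the log2 scale, for Ccl7 (-4.45), Ccl8 (-3.71), Ccl2 (-3.56), Ccl17 (-2.93) and Ccl1 (-1.68), by the limma test of the difference.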

How the results depend on the processing

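Calls of all 9 members in short OVA against short PBS and against short MCh lungs held under every alternative that tested them, and no called value changed sign. In long against short OVA lungs, Ccl22 missed the threshold with 0.1 added (adjusted p = 0.0589). Members called in long OVA against long PBS were 3, and 5 with array weights, in a fit of the groups alone and without the 3 libraries with the largest shares of genes at 0. Leaving out single libraries gave 3 to 5, with 5 without long MCh library a or c. For long OVA against long MCh 8 were called, 3 with the groups alone, 5 without those 3 libraries and 4 to 9 without single libraries (4 without long MCh library c, 5 without long OVA library a or d). Long MCh against long PBS gave 0, 1 with array weights and 0 to 1 without single libraries (1 without long MCh library d). Long against short PBS gave 0, and 1 with array weights and with the groups alone. For the OVA effect between protocols 5 were called, 3 with 0.1 added, without a filter and without the length trend, 9 with array weights, the groups alone and without those 3 libraries, and 3 to 8 without single libraries. It was 3 without long PBS library 1 or 2, short PBS library 3, long OVA library a, b or d, or short OVA library 1, 2 or 4, and 8 without short MCh library 4. The causes were not tested.

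Counts over all genes ran from 2009 to 7994 (3790 in the fit reported) for short OVA against PBS, 86 to 2047 (185) for long OVA against PBS, 0 to 340 (1) and 0 to 781 (10) for short and long MCh against PBS, 1556 to 8984 (2381) and 292 to 2403 (951) for short and long OVA against MCh, 0 to 1655 (26) for long against short PBS, 2871 to 8801 (4346) for long against short OVA, 132 to 4893 (295) for the OVA effect and 0 to 6 (0) for the MCh effect between protocols. With array weights, with the groups alone and without the 3 libraries named above, the counts were 2047, 1022 and 519 for long OVA against PBS. For the OVA effect they were 4893, 4513 and 1030. Long against short PBS had 1655 with array weights and 168 with the groups alone. Long MCh against PBS had 149 with array weights and 781 without long MCh library d.

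Same-numbered libraries correlated at -0.27 to 0.36 in their deviations, and libraries of different number at -0.327 to 0.405, which gives no sign of pairing. Deviations within groups of 3 or 4 libraries cannot exclude it. With a replicate block all 9 members were called in short OVA against short PBS, with Ccr8 at 0.74 ± 0.12 (limma adjusted p = 0.00214), and long OVA and MCh columns carry no number for a block. Low depth limits Ccl1, Ccr4 and Ccr8 outside short OVA lungs, and Ccl7 in PBS and MCh lungs. It also limits other members in some groups. In short PBS libraries Ccl2 rests on an estimated 13.4 to 48.8 fragments, Ccl8 on 19.0 to 63.6 and Ccl12 on 21.6 to 46.9. In short MCh libraries the lowest estimate for Ccl17 is 11.8. Ccl2, Ccl12, Ccl17 and Ccl22 are listed at 0 in long MCh library c.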

Other observations

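Gene and transcript FPKM were on different length scales beyond the 9 members. Over 10549 genes with 1 transcript, the gene value was 0.229 to 3.59 times the transcript value from the 5th to the 95th percentile. The length implied by a gene's value lay within 2% of its own transcript length for 6.8% of genes compared, of the next row's for 8.97% and of the second next row's for 28.4%.

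Among markers of cells that do not define this chemokine set, 5 of 7 eosinophil markers were higher and 1 lower in short OVA against short PBS lungs, and 3 of 5 endothelial markers were lower (limma). Of 8 lung epithelium markers 1 was higher and 2 were lower. Cardiac muscle markers passed for 0 of 8, with summed transcript FPKM between 65.1 and 335 for short OVA libraries, against 131 to 636 for short PBS libraries.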
